A study of Mus musculus with 6 samples.

Results

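The 39 Hox cluster genes of the mouse were followed across 6 bulk RNA libraries of sorted spinal cord cells. They were chosen by symbol alone, as every gene called Hoxa, Hoxb, Hoxc or Hoxd followed by a number, among 26264 genes in the count table. The cells came from cultures of adult spinal cord neural stem cells on the C57BL6J background that carried PDGFRaGFP, which lights up cells that express Pdgfra, a growth factor receptor typical of oligodendrocyte precursor cells. All cultures were grown in DMEM-F12 with N2, B27, EGF and FGF2, and sorted by their fluorescence into 3 GFP-negative and 3 GFP-positive libraries. The labels give the genotype PDGFRaGFP/- to the GFP-negative libraries and PDGFRaGFP/+ to the GFP-positive ones, and no age beyond adult. The titles number the libraries 314, 315 and 316 in each fraction, and nothing in the labels ties a number to an animal, a culture or a day. Spread between libraries, and every p-value drawn from it, may therefore be technical.

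Hox genes encode homeodomain transcription factors that give cells of the neural tube their position along the head to tail axis. They lie in 4 clusters, A on chromosome 6, B on chromosome 11, C on chromosome 15 and D on chromosome 2, and genes of like position in different clusters form paralog groups numbered from 1 to 13. Low numbers lie at the 3′ end of a cluster and are expressed from the hindbrain backwards, middle numbers start in the cervical and thoracic cord, and high numbers at the 5′ end start in the lumbar, sacral and tail regions. Adult cells keep much of this positional record, held in place by Polycomb and Trithorax chromatin proteins, and Hox proteins bind DNA together with Pbx and Meis partners.

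Hox promoters differ in base composition and motif content, and 4 of them are shown because their genes carry the contrasts described below. Hoxa7 and Hoxa9 are neighbours in cluster A that were called in opposite directions, Hoxb8 is the gene of cluster B with the highest CPM, and Hoxd9 was called in the direction opposite to its paralogs Hoxa9 and Hoxb9. Each stretch holds the 250 bases before the RefSeq transcript start, read 5′ to 3′ on the gene's strand, in build GRCm38.p6. The stretches lie at chr6:52218574-52218823 on the minus strand for Hoxa7, chr6:52227371-52227620 on the minus strand for Hoxa9, chr11:96281655-96281904 on the plus strand for Hoxb8 and chr2:74697513-74697762 on the plus strand for Hoxd9. Capitals mark matches, on either strand, to TGATNNAT (the Hox-Pbx motif), TTTATNG (a Cdx motif), AGGTCA (the half-site of retinoic acid receptors), TATAAA (the TATA box) and CCAAT.
Hoxa7: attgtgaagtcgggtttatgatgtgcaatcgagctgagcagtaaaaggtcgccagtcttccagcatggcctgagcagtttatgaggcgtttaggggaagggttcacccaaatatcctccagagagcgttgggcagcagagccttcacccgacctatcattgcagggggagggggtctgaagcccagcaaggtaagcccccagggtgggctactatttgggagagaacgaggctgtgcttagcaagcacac
Hoxa9: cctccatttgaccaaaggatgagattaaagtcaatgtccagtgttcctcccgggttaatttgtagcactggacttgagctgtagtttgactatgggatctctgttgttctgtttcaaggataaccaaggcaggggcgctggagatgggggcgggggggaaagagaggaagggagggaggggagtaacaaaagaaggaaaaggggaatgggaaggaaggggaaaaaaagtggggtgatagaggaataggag
Hoxb8: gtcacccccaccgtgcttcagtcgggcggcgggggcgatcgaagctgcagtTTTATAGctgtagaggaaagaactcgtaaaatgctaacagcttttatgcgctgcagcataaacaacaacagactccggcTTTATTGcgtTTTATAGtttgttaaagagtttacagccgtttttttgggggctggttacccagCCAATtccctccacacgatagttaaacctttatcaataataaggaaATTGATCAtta
Hoxd9: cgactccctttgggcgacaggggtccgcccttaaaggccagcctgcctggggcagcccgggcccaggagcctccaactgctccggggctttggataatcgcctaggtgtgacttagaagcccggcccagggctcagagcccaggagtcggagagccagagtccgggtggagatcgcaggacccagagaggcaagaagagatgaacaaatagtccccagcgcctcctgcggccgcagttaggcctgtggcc
None of the 5 motifs is in the stretches of Hoxa7, Hoxa9 and Hoxd9, which says only that these letters are not there. The Hoxb8 stretch holds 3 matches to TTTATNG, 1 to TGATNNAT, 1 to CCAAT and 2 to TATAAA, the last of which overlap TTTATNG matches on the other strand. RefSeq windows that also take in 50 bases after the start, 300 bases in all, were found for 22 of the 39 genes, 24 windows in total. TGATNNAT was in 16.7% of these windows and in 8.85% of 32851 windows of all genes. For CCAAT the shares were 62.5% and 37.4%, for AGGTCA 29.2% and 16.3%, for TATAAA 16.7% and 13.6%, and for TTTATNG 8.33% and 10.9%. Hox windows had a median of 14.5 CpG dinucleotides against 7 in all windows, ranging among the 4 shown genes from 4 in Hoxa9 through 9 in Hoxa7 and 13 in Hoxb8 to 20 in Hoxd9. A motif match is a description of the letters and not a binding site.

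Total counts per library lay between 31067850 and 45207335, and replicates were further apart than counting noise alone gives. Levels are given in CPM after TMM scaling, and the 3 values of a group always follow the order 314, 315, 316. A gene was called when its edgeR p-value, adjusted over 14554 tested genes, was below 0.05, and a positive log2 fold change means a higher level in GFP-positive cells. Pdgfra, the gene behind the sort, was at 8.04, 19.3 and 13.9 CPM in the GFP-negative libraries and at 237, 205 and 245 CPM in the GFP-positive ones. The groups did not overlap, with a log2 fold change of 4.06. Listed markers of oligodendrocyte precursors were called higher in GFP-positive cells for 11 of 12 genes, with Pdgfra itself among the 11. Neuronal markers were called higher for 5 of 5 tested genes, with Slc17a6 at 0 in every library. Astrocyte markers were called lower for 10 of 10 genes and neural stem or progenitor markers for 9 of 11, with Sox9 called higher (log2 fold change 0.34, edgeR adjusted p = 0.0302). The summed level of the astrocyte markers was 3739 to 4777 CPM in GFP-negative and 482 to 623 CPM in GFP-positive libraries. That of the precursor markers was 5620 to 5839 and 8078 to 8664 CPM, and that of the stem or progenitor markers 6104 to 6896 and 2440 to 2557 CPM. Most of the precursor sum in GFP-negative libraries was Ptprz1, which was not called. Its means were 3226 CPM in GFP-negative and 3171 CPM in GFP-positive libraries. Of the other listed types, ependymal markers were called lower for 4 of 4 tested genes, at a sum of 17.6 to 24.7 and 5.58 to 7.42 CPM. Mature oligodendrocyte markers were called higher for 2 and lower for 1 of 4 tested genes, at 128 to 180 and 205 to 226 CPM. Most of this sum was Cnp, at means of 139 and 187 CPM, while Mog, Mag, Mobp, Opalin and Ermn were too low to test. Neuronal markers summed to 73.4 to 96.2 and 188 to 196 CPM, and those of microglia to at most 2.65 CPM with 1 gene tested and not called. Those of Schwann and erythroid cells summed to 18.8 to 29 and 22 to 32.5 CPM, with 2 tested and neither called. Most of that sum was Egr2, at means of 21.2 and 25.3 CPM, which edgeR called with the replicate block (adjusted p = 0.0263). The part of this cell makeup in the Hox differences was not tested, and in bulk RNA fewer cells of a type and less RNA per cell cannot be told apart.

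Most Hox genes that differed were lower in GFP-positive cells. Of the 39 genes, 34 had enough counts to test, and 17 of them were called lower and 3 higher, with 14 not called. Over all tested genes, 29.2% were called lower and 26.1% higher. The median Hox log2 fold change was -0.68, and that of all tested genes was -0.006. All 3 GFP-positive libraries lay below all 3 GFP-negative ones for 16 Hox genes, against 33% of all tested genes, and above them for 4, namely Hoxa7, Hoxb7, Hoxd3 and Hoxd9, against 31.3%. Summed over all members, Hox transcripts came to 824, 784 and 798 CPM in the GFP-negative libraries and to 681, 682 and 727 CPM in the GFP-positive ones, so the summed levels did not overlap. The 5 genes too low to test were Hoxb1, Hoxd1, Hoxd11, Hoxd12 and Hoxd13, with at most 12 counts over the 3 libraries of a group. In GFP-negative and GFP-positive libraries together these were 3 and 1 counts for Hoxb1, 5 and 12 for Hoxd1, 4 and 6 for Hoxd11, 0 and 3 for Hoxd12, and 1 and 0 for Hoxd13; a count of 0 allows up to 0.0316 CPM over the GFP-negative and 0.0252 CPM over the GFP-positive libraries.

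**Figure D1:**
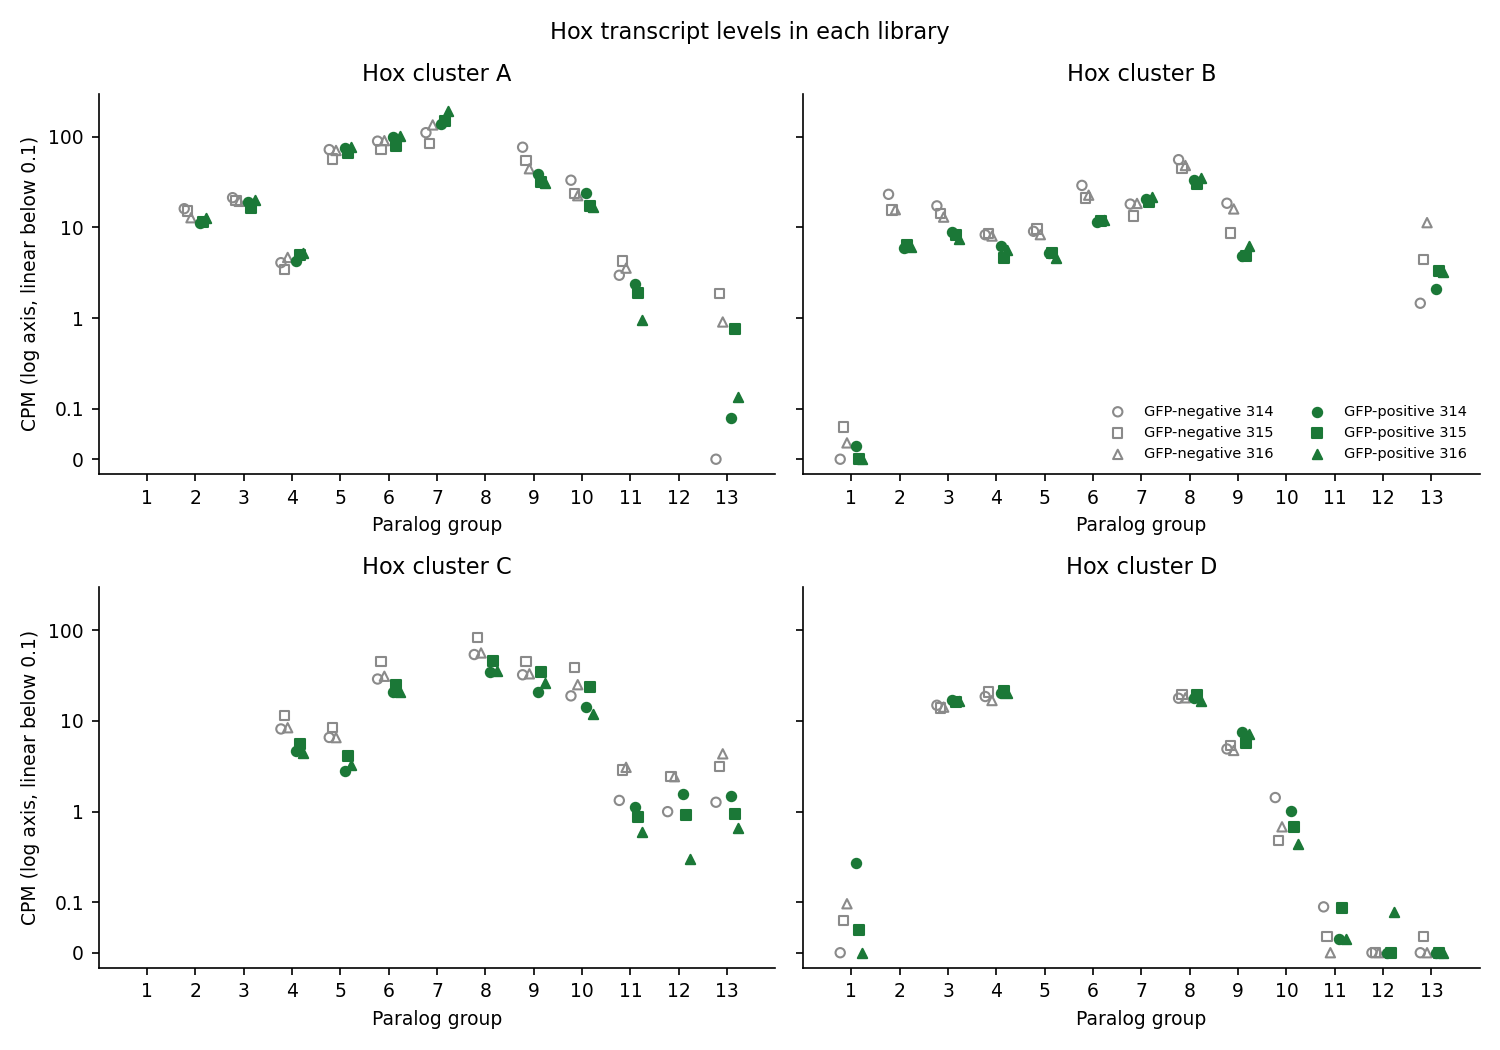
Level of each Hox gene in CPM (log axis, linear below 0.1) by paralog group, with 1 panel per cluster and 1 point per library; open grey symbols are GFP-negative and filled green symbols GFP-positive, and the shape gives the number 314, 315 or 316; 1 gene is not plotted. On this scale, which takes no account of transcript length, values are highest in the middle paralog groups and lower towards either end, with Hoxb1 and Hoxd1 near 0 like Hoxd11 to Hoxd13, and the green points lie lower than the grey ones for most genes of clusters B and C.

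Levels between genes are comparable only per length, so the axial profile was read in CPM per kilobase of transcript. The length was that of 1 GENCODE transcript per gene. Which transcripts these cells use was not tested, and the SD does not cover the choice of length. On this scale Hoxa6 was the highest Hox gene in both fractions, at 96.2 ± 11.9 in GFP-negative and 107 ± 14.5 CPM per kilobase in GFP-positive cells (SD, n = 3). Hoxa7 came next at 54.9 ± 12.5 and 79.3 ± 13.6, then Hoxa5 at 35.4 ± 4.54 and 38.6 ± 3.28. Hoxc8 followed at 34.5 ± 8.60 and 20.9 ± 3.35, and in GFP-negative cells its level did not differ from that of Hoxa5 beyond their spread. The order depends on the lengths used, 874 bases for Hoxa6 and 2009 for Hoxa7. In CPM Hoxa7 was above Hoxa6 in every library. Their means were 110 and 84.1 CPM in GFP-negative and 159 and 93.8 CPM in GFP-positive cells. The 5′ end was low in every cluster. Among the tested genes of groups 11 to 13, Hoxb13 was at 2.60 ± 2.29 CPM per kilobase in GFP-negative cells, with library 316 far above the others, and did not differ from Hoxc12 at 1.89 ± 0.80 beyond that spread. Hoxa13 and Hoxc13 were at 0.71 ± 0.72 and 1.18 ± 0.63. The 3′ gene Hoxa2 was at 8.28 ± 0.96 CPM per kilobase in GFP-negative cells. Genes of groups 4 to 8 took 64.1% to 68.1% of the summed Hox CPM in GFP-negative libraries and 72.2% to 76.3% in GFP-positive ones. Groups 9 to 13 took 21.5% to 25% and 14.6% to 18.8%, and groups 1 to 3 took 10.3% to 12% and 9.01% to 9.58%. None of these 3 shares overlapped between the fractions, and a share of summed CPM also carries transcript length. In summed CPM, groups 4 to 8 overlapped, at 531, 502 and 544 in GFP-negative and 496, 493 and 555 in GFP-positive libraries. Groups 9 to 13 were lower, at 194, 196 and 172 against 120, 128 and 106 CPM. So were groups 1 to 3, at 98.9, 85.5 and 82.6 against 65.3, 61.4 and 66 CPM. The larger share of groups 4 to 8 is thus not a higher level.

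Most listed genes of fore- and midbrain identity had few counts. Of 23 listed genes of forebrain, midbrain and anterior hindbrain identity, 15 were too low to test, with Otx2, which specifies forebrain and midbrain, at a mean of 0.0214 CPM in GFP-negative and 0.0091 CPM in GFP-positive cells. Not all were this low: Lhx2, a forebrain factor, was at 0.819, 3.73 and 1.59 CPM in GFP-negative and 0.953, 1.99 and 1.71 CPM in GFP-positive libraries. The midbrain gene En2 reached 2.17 and 1.48 CPM in the libraries 315. Emx1, a cortical factor, had no count, which allows up to 0.014 CPM over the 6 libraries. Of the 8 tested genes 1 was called higher and 1 lower, 12.5% each, against 26.1% and 29.2% of all tested genes. Both were Iroquois factors that spinal cord cells also use. With the replicate block a further one, Irx5, was called lower (log2 fold change -0.23, adjusted p = 0.0495). Irx1 was higher at 23.8, 36 and 18.1 CPM in GFP-positive against 2.43, 11.5 and 6.87 CPM in GFP-negative libraries (log2 fold change 1.91, SE 0.48, edgeR adjusted p = 0.0097). Irx3 was lower, at 12.9, 14.9 and 13.7 against 20.4, 23.4 and 21.3 CPM (log2 fold change -0.65, SE 0.09, adjusted p = 0.00065).

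**Figure D2:**
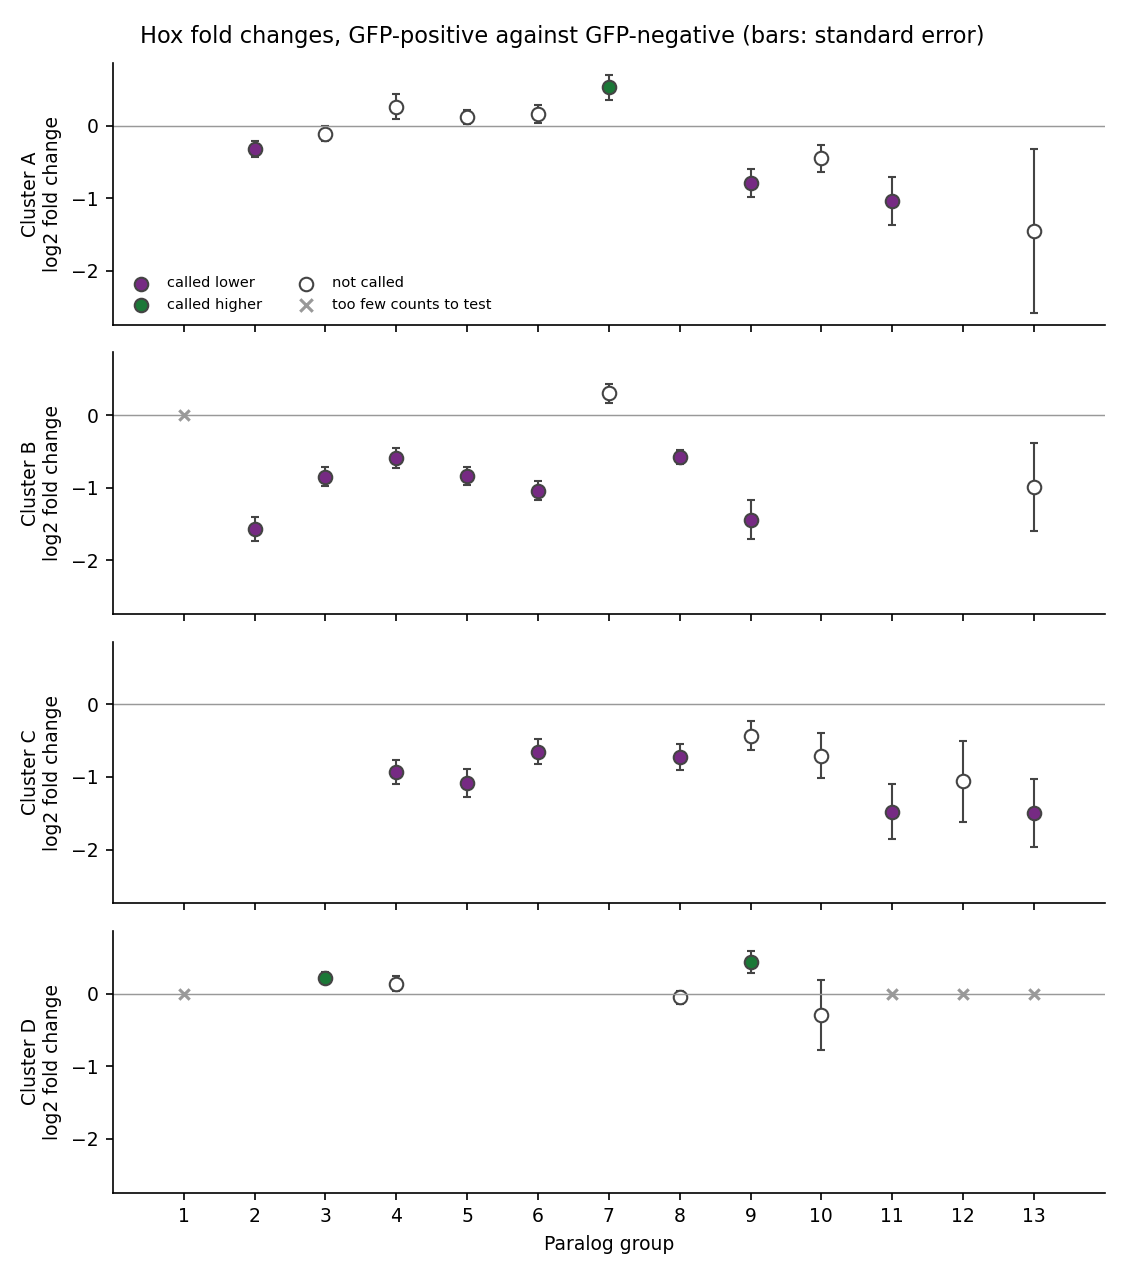
Log2 fold change of each tested Hox gene (GFP-positive minus GFP-negative, bars give the standard error) by paralog group, with 1 panel per cluster; filled purple is called lower, filled green called higher, open not called, and a cross marks a gene with too few counts to test; 1 gene is not plotted. Cluster C lies below 0 throughout, cluster B does so except at Hoxb7, cluster A crosses 0 in its middle, and cluster D lies between -0.29 and 0.44.

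In cluster A the genes called lower lay towards both ends and none lay in the middle. Of 11 tested genes 4 were called lower, among them Hoxa2, Hoxa9 and Hoxa11, and 1 higher, Hoxa7, with a median log2 fold change of -0.32. The shares were 36.4% and 9.09%, against 29.2% and 26.1% over all tested genes. Hoxa2, which patterns the hindbrain, was at 16.1, 15.2 and 12.8 CPM in GFP-negative and 11.2, 11.5 and 12.6 CPM in GFP-positive libraries. The groups did not overlap, but the lowest GFP-negative library, 316, lay just above the highest GFP-positive one, also 316. From Hoxa3 to Hoxa6 the log2 fold changes were -0.11, 0.26, 0.12 and 0.16, and none of these genes was called. Hoxa6 was called higher with the replicate number as a block (adjusted p = 0.0398) or without both libraries 315 (0.0248). Hoxa2, at a log2 fold change of -0.32 (edgeR adjusted p = 0.0412), lost its call with the block (0.0555), with no low-count filter (0.0623), without GFP-negative library 314 (0.135) or 315 (0.0808), without GFP-positive 314 (0.14), 315 (0.117) or 316 (0.056), and without both libraries 314 (0.317) or both 315 (0.135).

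Hoxa7, a thoracic Hox gene and the Hox gene with the most counts, was at 111, 84.9 and 135 CPM in GFP-negative and at 137, 151 and 190 CPM in GFP-positive libraries. The highest GFP-negative library, 316, came close to the lowest GFP-positive one, 314. Its log2 fold change was 0.53 (SE 0.17, adjusted p = 0.0309), and 0.54 with the replicate block (0.00139). The call was lost without GFP-negative library 314 (0.0712), GFP-positive 315 (0.0524), GFP-positive 316 (0.108) or both libraries 314 (0.0787). Its next neighbour towards the 5′ end, Hoxa9, went the other way, at 76.7, 54.3 and 44.4 CPM in GFP-negative and 38.6, 32.1 and 30.9 CPM in GFP-positive libraries. Every GFP-positive value was below every GFP-negative one, and the log2 fold change was -0.79 (SE 0.19, adjusted p = 0.00771), called in all 17 alternative fits. Counted within each library, there were 0.692, 0.639 and 0.329 Hoxa9 counts per Hoxa7 count in GFP-negative cells and 0.281, 0.213 and 0.163 in GFP-positive cells. The GFP-negative library 316 sat close to the GFP-positive range, without entering it. This pair of genes was chosen after its values were seen and carries no test.

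Further 5′ in cluster A, Hoxa10, a lumbar gene, had a log2 fold change of -0.45 and was not called (adjusted p = 0.0711), but was with the replicate block (0.00143), by DESeq2 (0.0326), with no low-count filter (0.0462) and without GFP-negative library 315 (0.0438), GFP-positive 314 (0.028) or both libraries 314 (0.023). Hoxa11 was low, at 2.97, 4.27 and 3.56 CPM in GFP-negative and 2.40, 1.88 and 0.952 CPM in GFP-positive libraries (log2 fold change -1.04, SE 0.33, adjusted p = 0.0257). The call was lost without GFP-negative library 315 (0.0508) or 316 (0.0596), GFP-positive 315 (0.0575), both libraries 315 (0.0716) or both 316 (0.0982). In the GENCODE annotation, 35% of the exonic bases of Hoxa11 lie opposite Hoxa11os and 20.4% of those of Hoxa7 opposite Hoxaas3. The strand setting of the counting is not given in the sources used here, so reads of a gene and its antisense partner may be mixed.

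Most of cluster B fell. Of 9 tested genes 7 were called lower, Hoxb2 to Hoxb6, Hoxb8 and Hoxb9, with a median log2 fold change of -0.85. This was 77.8%, against 29.2% over all tested genes. No gene of the cluster was called higher by edgeR, also at an unadjusted p below 0.05 (0 genes), by DESeq2 (0) or by limma-voom (0), and 1 was with the replicate block, Hoxb7. Summed over the cluster, transcripts were at 181, 140 and 162 CPM in GFP-negative and at 99.1, 93.8 and 102 CPM in GFP-positive libraries. Hoxb2, a hindbrain gene, was at 23.2, 15.6 and 15.7 CPM in GFP-negative and at 5.94, 6.36 and 6.04 CPM in GFP-positive libraries. The GFP-positive values were nearly equal and all far below, a log2 difference of -1.57 with SE 0.17 and adjusted p = 0.000123, the lowest of the tested Hox genes. The exons of Hoxb2 and Hoxb3 share 27.3% and 52.9% of their bases with Hoxb3os on the opposite strand.

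The middle of cluster B moved less evenly. Hoxb6 was at 29.1, 21.1 and 22.7 CPM in GFP-negative and 11.4, 11.8 and 12.1 CPM in GFP-positive libraries (log2 fold change -1.04, SE 0.13, adjusted p = 0.000257). Hoxb7, its direct neighbour, was at 18.1, 13.4 and 18.4 CPM and 20.8, 19.1 and 21.4 CPM, so all GFP-positive libraries lay above all GFP-negative ones. Its log2 fold change of 0.30 (SE 0.13) was not called (adjusted p = 0.0853), and was with the replicate block (0.0265). Hoxb8, which acts in spinal sensory circuits and is the Hoxb gene with the most counts, was lower at 33.6, 30.1 and 35.4 CPM in GFP-positive against 55.9, 44.5 and 48.2 CPM in GFP-negative libraries (log2 fold change -0.58, SE 0.10, adjusted p = 0.00153). Hoxb7 thus stood between called neighbours on both sides. There were 1.61, 1.57 and 1.24 Hoxb6 counts per Hoxb7 count in GFP-negative and 0.551, 0.618 and 0.567 in GFP-positive libraries, and 3.08, 3.33 and 2.62 against 1.62, 1.57 and 1.66 Hoxb8 counts. These pairs of genes were chosen after their values were seen and carry no test.

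Hoxb9, a thoracic gene, was at 18.5, 8.70 and 16.0 CPM in GFP-negative and at 4.85, 4.88 and 6.26 CPM in GFP-positive libraries. The GFP-negative library 315 was the lowest of its group and still above every GFP-positive one, and the log2 fold change was -1.44 (SE 0.27, adjusted p = 0.00224). Hoxb3, Hoxb4 and Hoxb5 had log2 fold changes of -0.85, -0.59 and -0.84. Of these, Hoxb4 lost its call without both libraries 316 (adjusted p = 0.0595).

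**Figure D3:**
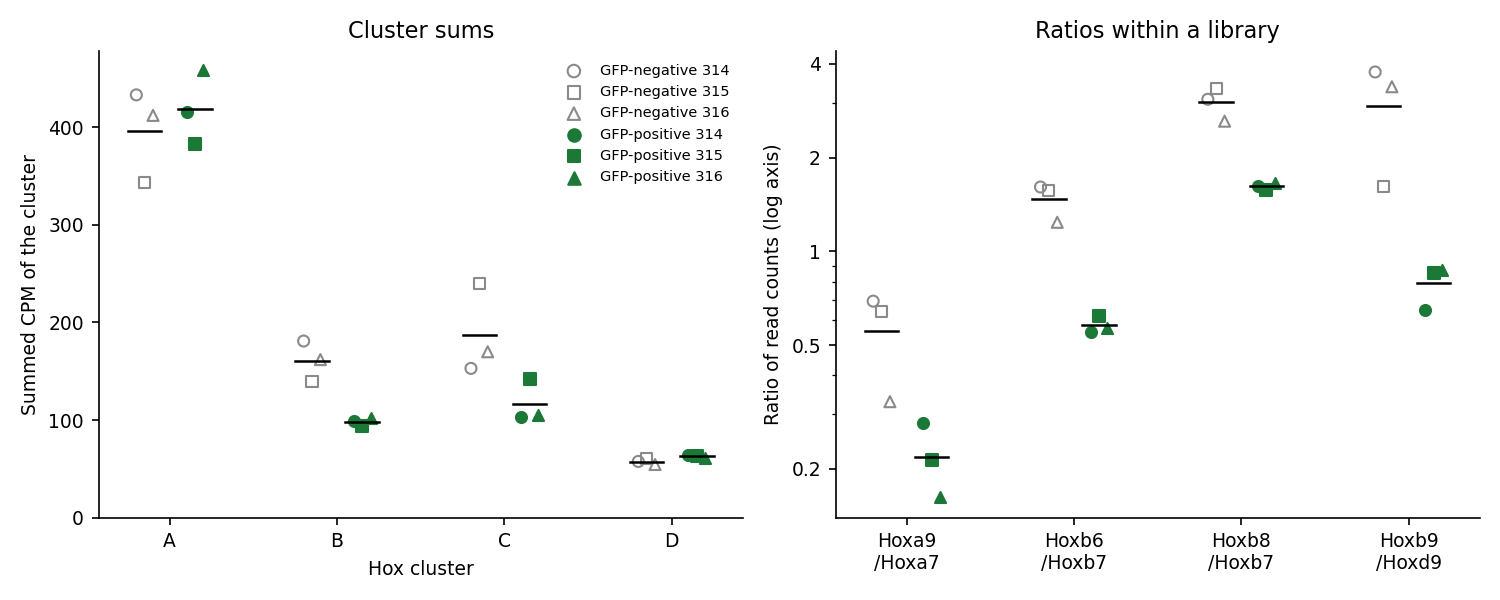
Left, summed CPM of each Hox cluster in each library; right, ratio of read counts of gene pairs within each library (log axis), with open grey symbols for GFP-negative, filled green for GFP-positive, shapes for the numbers and bars for the group means. Clusters B and C are lower in GFP-positive libraries, cluster A overlaps, and the 4 ratios do not overlap between the fractions. The gene pairs were chosen after their values were seen. Each sets a gene with all GFP-positive libraries lower over one with all higher, so the ratios could not overlap.

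In cluster C every tested gene had a negative log2 fold change. Of 9 genes 6 were called lower, Hoxc4, Hoxc5, Hoxc6, Hoxc8, Hoxc11 and Hoxc13, with a median of -0.93. This was 66.7%, against 29.2% over all tested genes. In this cluster 0 genes were called higher by edgeR (0 at an unadjusted p below 0.05, 0 by DESeq2 and 0 by limma-voom). Summed over the cluster, transcripts were at 153, 240 and 170 CPM in GFP-negative and at 103, 142 and 105 CPM in GFP-positive libraries. Library 315 was the highest of both groups. Hoxc5, which acts in cervical motor neurons, was at 6.58, 8.45 and 6.55 CPM in GFP-negative and 2.81, 4.13 and 3.24 CPM in GFP-positive libraries (log2 fold change -1.08, SE 0.19, adjusted p = 0.0018). Hoxc8, which shapes forelimb motor pools and is the Hoxc gene with the highest level, was at 54.0, 82.9 and 56.2 CPM and 34.9, 46.2 and 36 CPM. The groups did not overlap, and the log2 fold change was -0.72 (SE 0.18, adjusted p = 0.0092). Hoxc4 and Hoxc6, the latter a gene of the brachial cord, had log2 fold changes of -0.93 and -0.65, and Hoxc6 lost its call without both libraries 316 (0.0567).

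Hoxc9 and Hoxc10, which mark thoracic and lumbar cord, were not called without the block and were called lower with it. Hoxc9 had a log2 fold change of -0.43 (adjusted p = 0.0939) and -0.45 with the block (0.002), and Hoxc10 -0.71 (0.0831) and -0.72 (0.00144). Hoxc10 was highest in library 315 of each group, at 18.9, 38.6 and 25.1 CPM in GFP-negative and 14.4, 23.8 and 12 CPM in GFP-positive libraries. Within each number the GFP-positive library was the lower one. Hoxc9 was also called by DESeq2 (0.0479) and without GFP-positive library 315 (0.0264) or both libraries 315 (0.0108), and Hoxc10 with no low-count filter (0.0471) and without GFP-negative library 314 (0.039), GFP-positive 315 (0.022) or both libraries 315 (0.00417). The same-number log2 ratios were -0.39, -0.69 and -1.06 for Hoxc10 and -0.62, -0.40 and -0.32 for Hoxc9.

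Towards the 5′ end of cluster C the difference varied with the number. Hoxc11 was at 1.33, 2.87 and 3.08 CPM in GFP-negative and 1.12, 0.883 and 0.598 CPM in GFP-positive libraries (log2 fold change -1.48, SE 0.38, adjusted p = 0.0108), and lost its call without both libraries 316 (0.119). Hoxc13 was at 1.27, 3.12 and 4.34 CPM in GFP-negative and 1.47, 0.949 and 0.653 CPM in GFP-positive libraries (log2 fold change -1.50, SE 0.47, adjusted p = 0.0258). Its groups overlapped, with the GFP-positive library 314 above the GFP-negative library 314, and limma-voom gave an adjusted p of 0.0508. The call of Hoxc13 was lost without GFP-negative library 316 (0.102), GFP-positive 315 (0.0774) or 316 (0.0867), both libraries 315 (0.0786) or both 316 (0.235). Hoxc12 had same-number log2 ratios of 0.66, -1.39 and -3.02 for 314, 315 and 316 and was not called (log2 fold change -1.06, adjusted p = 0.141), except without both libraries 314 (0.0345). Those of Hoxc13 were 0.21, -1.72 and -2.73.

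**Figure D4:**
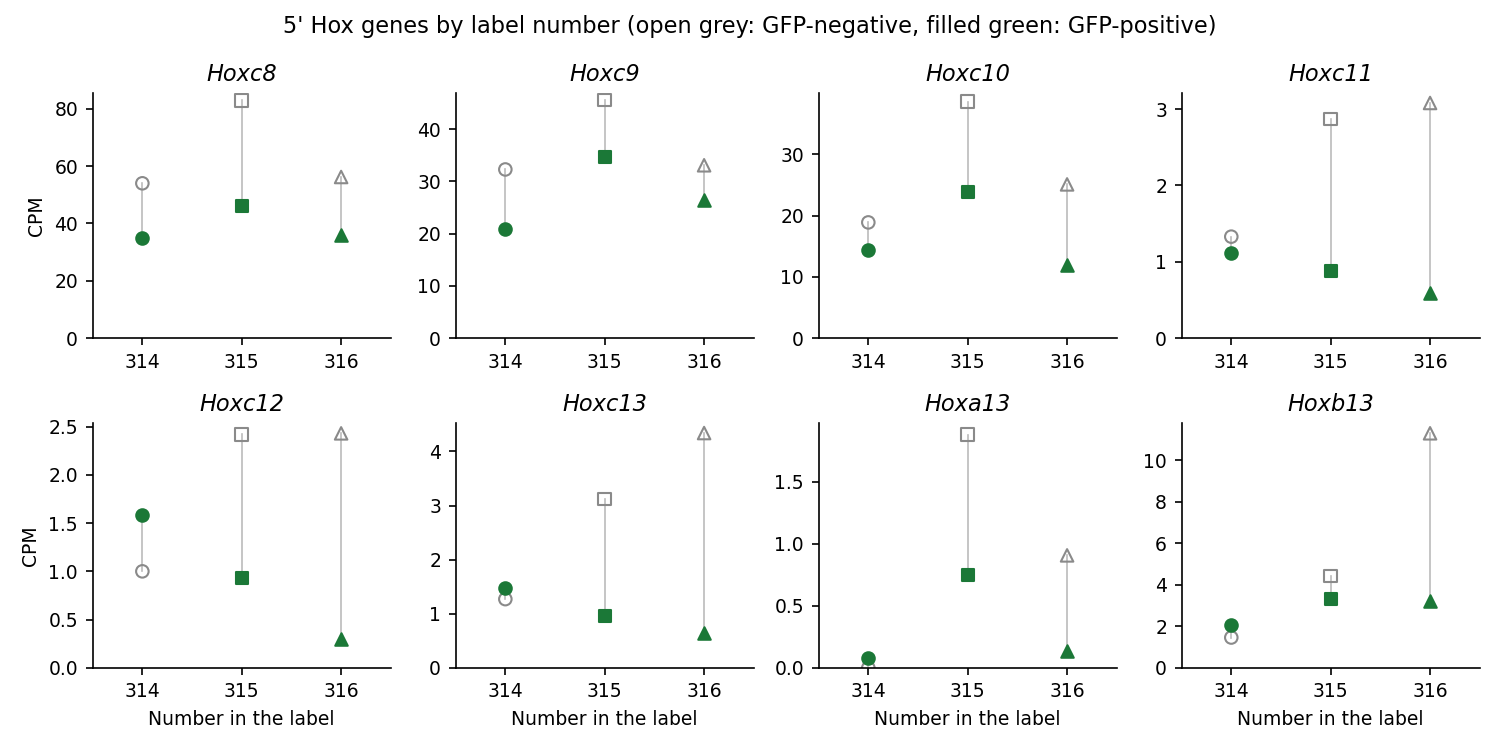
CPM of 8 Hox genes of the 5′ side by the number in the label, with an open grey symbol for the GFP-negative library and a filled green one for the GFP-positive library of that number, joined by a line. Hoxc8 to Hoxc11 are lower in the GFP-positive library of every number, while for Hoxc12, Hoxc13 and Hoxb13 the pair 314 runs the other way. Hoxa13 had no count in GFP-negative library 314, so that pair shows no direction.

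The group 13 genes of clusters A and B, which act at the tail end of the axis, also varied by number. Hoxb13 was at 1.46, 4.43 and 11.3 CPM in GFP-negative and 2.07, 3.33 and 3.24 CPM in GFP-positive libraries, and Hoxa13 at 0, 1.88 and 0.907 CPM and 0.0817, 0.751 and 0.136 CPM. Neither was called, at log2 differences of -0.99 (SE 0.61, adjusted p = 0.202) and -1.45 (SE 1.13, adjusted p = 0.309). Without GFP-negative library 314 Hoxb13 was called lower, at -1.44 (0.0204), and with the block together with the length and GC correction Hoxa13 was, at -1.85 (0.0349). No count of Hoxa13 in GFP-negative library 314 allows a level of up to 0.0913 CPM there. Markers of endothelial, mural and fibroblast cells also varied by library, with a sum over the 11 listed genes of 3.58, 104 and 24.5 CPM in GFP-negative and 2.42, 10.5 and 2.83 CPM in GFP-positive libraries. In both libraries 315 and in GFP-negative library 316 most of this was 1 gene, Col3a1, a collagen of fibroblasts. It was at 0.758, 102 and 20.6 CPM in GFP-negative and 0.0272, 9.18 and 1.12 CPM in GFP-positive libraries. Of these markers 4 had enough counts to test and 1 was called lower, or 2 with the replicate block, which added Col3a1 (log2 fold change -3.52, adjusted p = 0.0801, and -3.72, 9.74e-07, with the block). Cldn5 had no count in any library and Cdh5 none in GFP-positive ones. In GFP-negative libraries the fibroblast markers Col1a1, at 1, 0.765 and 1.3 CPM, and Lum, at 0.243, 0.255 and 0.162 CPM, did not follow Col3a1. Pdgfrb and Dcn were also highest in GFP-negative library 315, but at only 0.414 and 0.287 CPM. The sums thus do not show how many cells of these types a library held. The part of such cells in the 5′ Hox values was not tested.

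Cluster D held 2 of the 3 Hox genes called higher. Of its 5 tested genes Hoxd3 and Hoxd9 were called higher and 0 lower by edgeR (0 at an unadjusted p below 0.05, 0 by DESeq2, 0 by limma-voom and 0 with the block), with a median log2 fold change of 0.14. The genes called higher were 40% of the tested ones, against 26.1% over all tested genes. Summed levels were 57.7, 60.3 and 54.6 CPM in GFP-negative and 64.0, 63.4 and 61.4 CPM in GFP-positive libraries. Hoxd3 was at 14.9, 13.9 and 14.2 CPM in GFP-negative and 17.0, 16.2 and 16.8 CPM in GFP-positive libraries. The values were tight and did not overlap, but the difference was small, a log2 difference of 0.22 with SE 0.08 and adjusted p = 0.0473, not called with upper-quartile scaling (0.0675), with no low-count filter (0.086), with the block (0.0668), by DESeq2 (0.0637) or by limma-voom (0.0505). Leaving out any library or number ended the call, with adjusted p from 0.061 without GFP-negative library 314 to 0.209 without both libraries 316. Hoxd3 and Hoxd4 share 62.3% and 52.3% of their exonic bases with other genes on the same strand, each other among them, so their counts are uncertain.

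Hoxd4, the Hoxd gene with the highest level in CPM, was at 18.6, 20.8 and 16.8 CPM in GFP-negative and 20.5, 21.3 and 20.2 CPM in GFP-positive libraries. The groups overlapped, and the log2 fold change of 0.14 was called only without GFP-negative library 315 (0.0476) and with the replicate block together with the length and GC correction (0.048). Hoxd9 was at 4.91, 5.39 and 4.73 CPM in GFP-negative and 7.49, 5.74 and 7.18 CPM in GFP-positive libraries (log2 fold change 0.44, SE 0.15, adjusted p = 0.0359). GFP-positive library 315 lay just above the GFP-negative range. Its call was lost without GFP-negative library 314 (0.0879) or 316 (0.0887), GFP-positive 314 (0.111) or 316 (0.114), both libraries 314 (0.22) or both 316 (0.226), and with the block together with the length and GC correction (0.0902). Hoxd8 and Hoxd10 had log2 fold changes of -0.05 and -0.29 and were not called.

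Read across clusters, several paralog groups held genes of different calls. In group 9, Hoxa9 and Hoxb9 fell by 0.79 and 1.44 on the log2 scale, Hoxc9 was at -0.43 and not called, and Hoxd9 rose by 0.44. There were 3.77, 1.62 and 3.38 Hoxb9 counts per Hoxd9 count in GFP-negative and 0.647, 0.850 and 0.871 in GFP-positive libraries, a pair also chosen after its values were seen. Group 7 had positive log2 fold changes in both of its genes, 0.53 in Hoxa7 and 0.30 in Hoxb7. By contrast, group 8 had -0.58, -0.72 and -0.05 in clusters B, C and D. In groups 4, 5 and 6 the A gene was at 0.26, 0.12 and 0.16, none called, while the B gene was at -0.59, -0.84 and -1.04 and the C gene at -0.93, -1.08 and -0.65, all called lower. Group 10 had 0 calls by edgeR, 1 gene lower at an unadjusted p below 0.05 (Hoxa10), 1 by DESeq2, 0 by limma-voom and 2 with the block (Hoxa10 and Hoxc10). By region, 4 of 6 tested genes of groups 1 to 3 were called lower, 8 of 15 of groups 4 to 8 and 5 of 13 of groups 9 to 13. These were 66.7%, 53.3% and 38.5%, against 29.2% over all tested genes. Each region had 1 gene called higher, or 16.7%, 6.67% and 7.69%, against 26.1%. With the replicate block 3 genes were called lower and 0 higher in groups 1 to 3. In groups 4 to 8 these numbers were 8 and 3, and in groups 9 to 13 they were 8 and 1. Differences between clusters or regions were not tested.

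Noncoding transcripts of the clusters were lower in most called cases. Of 19 listed transcripts in the count data, 11 were tested, and 6 were called lower and 1 higher, with a median log2 fold change of -1.20. These were 54.5% and 9.09% of the tested ones, against 29.2% and 26.1% over all tested genes. Hotairm1, at the 3′ end of cluster A, was at 4.82, 5.19 and 5.82 CPM in GFP-positive against 19.5, 16.4 and 15.7 CPM in GFP-negative libraries (log2 fold change -1.70, SE 0.13, adjusted p = 2.15e-05). Gm15050 and Hoxaas2, both in cluster A, had log2 fold changes of -1.84 (SE 0.27) and -1.32 (SE 0.23). Hotair, a long RNA of the 5′ side of cluster C that is known for binding Polycomb proteins, had -2.32 (SE 0.46, adjusted p = 0.00325), from a mean of 3.28 to 0.651 CPM. Mira, next to Hoxa7 in cluster A, rose by 0.40 (SE 0.11, adjusted p = 0.0154), and lost its call without GFP-positive library 316 (0.0613) or both libraries 314 (0.0606).

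TALE homeodomain proteins, the DNA-binding partners of Hox proteins, and their regulators were called in both directions. Of 12 genes 7 were lower and 3 higher, the latter being Meis2, Meis3 and Pknox2, with a median of -0.36. The shares were 58.3% and 25%, against 29.2% and 26.1% over all tested genes. Meis1 was at 166, 140 and 156 CPM in GFP-negative and 59.4, 51.0 and 56.6 CPM in GFP-positive libraries (log2 fold change -1.47, SE 0.08, adjusted p = 6.09e-06). Its relative Meis3 went the other way, at 17.3, 18.4 and 16.7 CPM and 35.1, 37.2 and 36.4 CPM (log2 fold change 1.05, SE 0.07, adjusted p = 1.54e-05). Pbxip1, a protein that binds Pbx, was at 202, 113 and 251 CPM in GFP-negative and 8.15, 9.18 and 10.4 CPM in GFP-positive libraries (log2 fold change -4.35, SE 0.29). Meis2 lost its call without both libraries 316 (0.0578).

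Polycomb genes, which keep Hox genes silent, were called higher in 15 of 34 cases and lower in 3, with a median of 0.16. These were 44.1% and 8.82%, against 26.1% and 29.2% over all tested genes. Jarid2, a cofactor of the H3K27 methyltransferase complex, rose by 0.76 (SE 0.09, adjusted p = 0.000156) and Kdm2b, which brings Polycomb proteins to CpG islands, by 0.57 (SE 0.06). The methyltransferase Ezh2 rose by 0.43. The 3 lower genes were Pcgf5, Phf1 and Rbbp7, with log2 fold changes of -0.96, -0.54 and -0.33, and Phf1 lost its call without both libraries 316 (0.0662). A list of Trithorax genes and H3K27 demethylases, which act against Polycomb, also held other chromatin genes such as Ctcf and Kansl1. Its genes were called higher in 7 of 17 cases and lower in 1, or 41.2% and 5.88%, with a median of 0.17. With the block and the length and GC correction 5 were called higher. Kmt2a (edgeR adjusted p = 0.0984) and Kmt2b (0.361) then lost their calls. The demethylase Kdm6b was at 358, 396 and 364 CPM in GFP-positive against 236, 263 and 243 CPM in GFP-negative libraries (log2 fold change 0.59, SE 0.06, adjusted p = 0.000142). Kansl1 and Ash2l rose by 0.37 and 0.31. Dpy30, at -0.25, was the lower one (adjusted p = 0.036), and of the 9 fits with a library or number removed, the call held only without GFP-negative library 315 or both libraries 315 (0.0695 to 0.203 in the other 7).

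Among upstream regulators of axial identity, 18 of 28 genes in the table were tested, and 3 were called higher and 5 lower, with a median of 0.12. The called shares, 16.7% and 27.8%, were no larger than the 26.1% and 29.2% of all tested genes. Acvr2b, a receptor of Gdf11, rose by 1.14 (SE 0.09, adjusted p = 3.03e-05) and Gdf11, the ligand that sets the trunk to tail transition, by 0.49 (SE 0.05, adjusted p = 0.000153). Both were higher in every GFP-positive library than in any GFP-negative one, Acvr2b at 112, 102 and 111 against 45.9, 56.2 and 45.3 CPM. The third higher gene was the retinoid receptor Rxrb (log2 fold change 0.68, SE 0.07). All 5 lower genes belong to retinoid signalling, which makes up much of the list: the receptors Rarb, Rxra and Rxrg had log2 fold changes of -2.35, -0.70 and -1.88, and the enzymes of retinoic acid synthesis Aldh1a1 and Aldh1a3 had -2.06 and -2.08. Without both libraries 316 Aldh1a3 was not called (0.104). Cdx1, Cdx2 and Cdx4, which switch on trunk Hox genes in the embryo, had no count, which allows up to 0.014 CPM over the 6 libraries.

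Genes beside the clusters give the values outside their borders. Of 22 such genes in the count data, 17 were tested, and 7 were called lower and 3 higher, with a median of -0.13. The shares were 41.2% and 17.6%, against 29.2% and 26.1% over all tested genes. Skap2, next to the 3′ end of cluster A, was at 64.6, 62.8 and 65.5 CPM in GFP-positive against 146, 143 and 137 CPM in GFP-negative libraries (log2 fold change -1.14, SE 0.05, adjusted p = 2.78e-06). Copz2, in the neighbourhood of cluster B, was lower, with a log2 fold change of -2.70 and an SE of 0.26. The 3 higher genes were Calcoco1, Hnrnpa1 and Cbx1, at 0.51, 0.54 and 0.25, and Cbx1 lost its call without both libraries 316 (0.0544). Evx1 and Evx2, the homeobox genes at the 5′ ends of clusters A and D, were too low to test.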

How the data were processed

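Groups come from the sorted fraction named in the 6 titles. Per the labels' protocols, RNA was extracted with RNeasy and the kit for cDNA was SMART-Seq Stranded. Per the submitters' processing notes, the build was mm39, with TopHat2 2.1.1 and featureCounts 2.0.0 beside SAMtools 1.9. Annotation, strand setting and multiply mapped reads: not given in the sources used here. The authors deposited raw read counts per gene, with no normalization. Lines that lack an Entrez number (133) hold 0.046% of the counts and were kept.

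All tests were fitted on the whole table with edgeR 4.0.16 (R 4.3.3): filterByExpr, TMM, the quasi-likelihood F test, and p-values adjusted by Benjamini and Hochberg's method over 14554 genes. Standard errors were derived from each log2 fold change and the root of its F statistic. Transcript lengths, GC content and exon overlaps came from GENCODE vM21, a build other than the authors' one, so no gene coordinates were taken from it; promoters came from RefSeq GRCm38.p6. Libraries with the same number deviated together from the means of their groups, with correlations of 0.218, 0.355 and 0.159, all above 0.1. GFP-negative library 314 and GFP-positive library 316, of different numbers, also passed this cut, at 0.128. The other pairs of different numbers lay from -0.306 to 0.01. Deviations from a group mean sum to 0, so these correlations are not independent of each other. The numbers were taken to pair the samples, which remains an assumption. The main fit has no block, and the blocked value is printed where it changes the call of a Hox gene, with other changed calls given once. Limits set by a count of 0 are 3 counts of the total and cover counting error only, since PCR copies are counted.

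The members, the 7 gene lists and the cell type markers were chosen with earlier results of these data known. Values of every library are given for Pdgfra, every Hox gene called higher, the 3 called lower Hox genes of each cluster with the largest fall and the member of each cluster with the highest level. In each list the 3 genes with the smallest p and the opposite call with the smallest p are named; some genes these rules take in are not reported here. Others, such as Hoxb7, Hoxc10, Hoxb13, Lhx2, En2, Irx5, Hotair, Ezh2 and the genes of small counts, were named after their values were seen. Alternatives were upper-quartile and RLE scaling, dropping the low-count filter, a minimum of 1 CPM in 3 libraries, DESeq2 1.42.0, limma-voom (limma 3.58.1), the replicate block with and without a length and GC correction, and leaving out each library or number.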

Additional observations from a re-analysis of the deposited data

How the results depend on the processing

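The Hox genes called lower numbered 17 and kept to 12 to 20 over all 17 alternatives, with 19 under the replicate block, and 11 of the 17 genes were called lower in every one. The Hox genes called higher were fewer and less stable. They numbered 3, 4 with the replicate block and 6 with the replicate block and the length and GC correction, and from 0 to 3 when a library or number was left out. The count was 0 without GFP-negative library 314 (4 at an unadjusted p below 0.05), without GFP-positive library 316 (0) and without both libraries 314 (1), by edgeR. It was 1 without GFP-negative library 316, GFP-positive 314, GFP-positive 315 or both libraries 316. Over all genes, those called higher ranged from 2450 without both libraries 316 to 4169 without GFP-negative library 315. The sign of the log2 fold change held in all 17 alternatives for 31 of the 34 tested Hox genes, the exceptions being Hoxd8 and Hoxd10, which changed sign without being called, and Hoxa13, which was not tested in all of them. The median of all genes stayed between -0.034 and 0.006 in the fits by scaling, filter, tool or block. With the block and the length and GC correction, Hoxa5 (0.00505), Hoxa6 (0.0043) and Hoxb7 (0.00239) were called higher and Hoxa2 was not called (0.215). Outside the Hox genes, the replicate block added calls, among them those of Phf19, Kmt2d, Egr2, Irx5 and Col3a1, and ended that of Tax1bp1 (0.0805). Depth limits the 5 Hox genes with too few counts to test. The cause of the lost calls was not tested.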
